A study of Mus musculus with 10 samples.

Results

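Lipoprotein traffic in the brain was followed through 9 genes: the apolipoprotein genes Apoe, Clu and Apod, the extracellular enzyme genes Lcat and Lpl, and the receptor genes Vldlr, Lrp1, Lrp8 and Sorl1. They were taken by gene symbol, and all 9 are present, once each, among the 18464 genes of the deposited table. The RNA-seq libraries, 10 in all, were made from ventral midbrain, that is the ventral tegmental area and the substantia nigra pars compacta, and the mice, of strain Aldh1l1-NuTRAP, were naive. In these mice ribosomes are tagged in cells selected through the Aldh1l1 promoter, which is active in brain mainly in astrocytes. Translating ribosome affinity purification pulls down the tagged ribosomes with their RNA. The input group holds 5 libraries of RNA from all cell types of the tissue, and the astrocyte fraction (posfxn in the titles) holds 5 libraries of the purified RNA. Both groups therefore carry the tag, and no treatment, age or sex is stated for either. A number in the title (88, 92, 976, 981 or 982) links each input library to 1 library of the astrocyte fraction. Nothing says whether these are separate animals, so p-values measure the spread between these libraries, which may be technical.

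In the brain, lipoproteins are made locally, because the large particles of the blood do not cross the blood-brain barrier. Apolipoprotein E and clusterin (apolipoprotein J) are secreted, loaded with cholesterol and phospholipid by ABC transporters, and the particles are matured by lecithin-cholesterol acyltransferase, which esterifies their cholesterol. Cells take the particles up through receptors of the LDL receptor family, of which LRP1 is the main endocytic receptor for apolipoprotein E, while VLDLR and the LRP8 protein (ApoER2) also receive the signal of reelin. SORL1 has both LDL receptor type repeats and a VPS10 domain and sorts cargo such as the amyloid precursor protein in endosomes. Apolipoprotein D is a small lipocalin unrelated in sequence to apolipoprotein E and clusterin, and lipoprotein lipase frees fatty acids from triglyceride.

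Input libraries held 21812194 to 30878894 expected (estimated) counts, and those of the astrocyte fraction 24479136 to 26924406, except library 92 with 3845555, whose values carry more counting error. Levels are CPM, the counts of a gene relative to a library size that was scaled by the TMM method, and fold changes and adjusted p-values come from edgeR's quasi-likelihood test on all genes with Benjamini-Hochberg adjustment. Aldh1l1, whose promoter selects the tagged cells, lay at 88.2 to 108 CPM in the inputs and at 673 to 899 CPM in the astrocyte fraction. The 14 listed astrocyte markers were all higher in the astrocyte fraction, by a median of 3.07 on the log2 scale, and all 14 neuron, 10 oligodendrocyte, 6 precursor and 10 microglia markers were lower, with medians of -2.41, -3.87, -3.19 and -4.23. Vascular lists were reduced less or not: of 8 endothelial markers 5 were lower and 3 had no call (sum 108 to 135 CPM in the inputs, 71.6 to 103 in the astrocyte fraction), and of 10 mural and fibroblast markers 7 were lower and 2 higher (Pdgfrb and Col1a2, named after their values were seen), with sums of 92.9 to 121 and 91.2 to 129 CPM. Libraries 976 and 982 of both groups held ependymal and choroid plexus transcripts, summing to between 720 and 12576 CPM, while the remaining 6 libraries held 24.7 to 141 CPM.

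The 9 genes split by direction. Apoe, Clu and Lcat were 6.10- to 8.25-fold higher in the astrocyte fraction, Lrp1, Sorl1 and Lrp8 were 1.71- to 2.19-fold higher, and Apod, Lpl and Vldlr were 6.12-, 3.26- and 2.13-fold lower. That is 6 higher and 3 lower of 9 tested, where 33.1% of all 17672 tested genes were called higher and 37.5% lower, 70.6% in either direction. Of all called genes 46.9% were higher, and 34.0% when libraries were scaled to total counts, which moves the median change over all genes from -0.06 to -0.34 (log2). Under that scaling the count of 6 higher and 3 lower was the same. The astrocyte fraction lay wholly above the input for 6 of the 9 genes and wholly below it for 2, Apod and Lpl. Over all genes such separation was seen for 27.2% above and 31.1% below. A bulk input level is over all cells of the tissue, where fewer cells of a type and less RNA per cell cannot be told apart, and a lower level in the astrocyte fraction says only that the gene makes up less of the RNA recovered there.

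**Figure D1:**
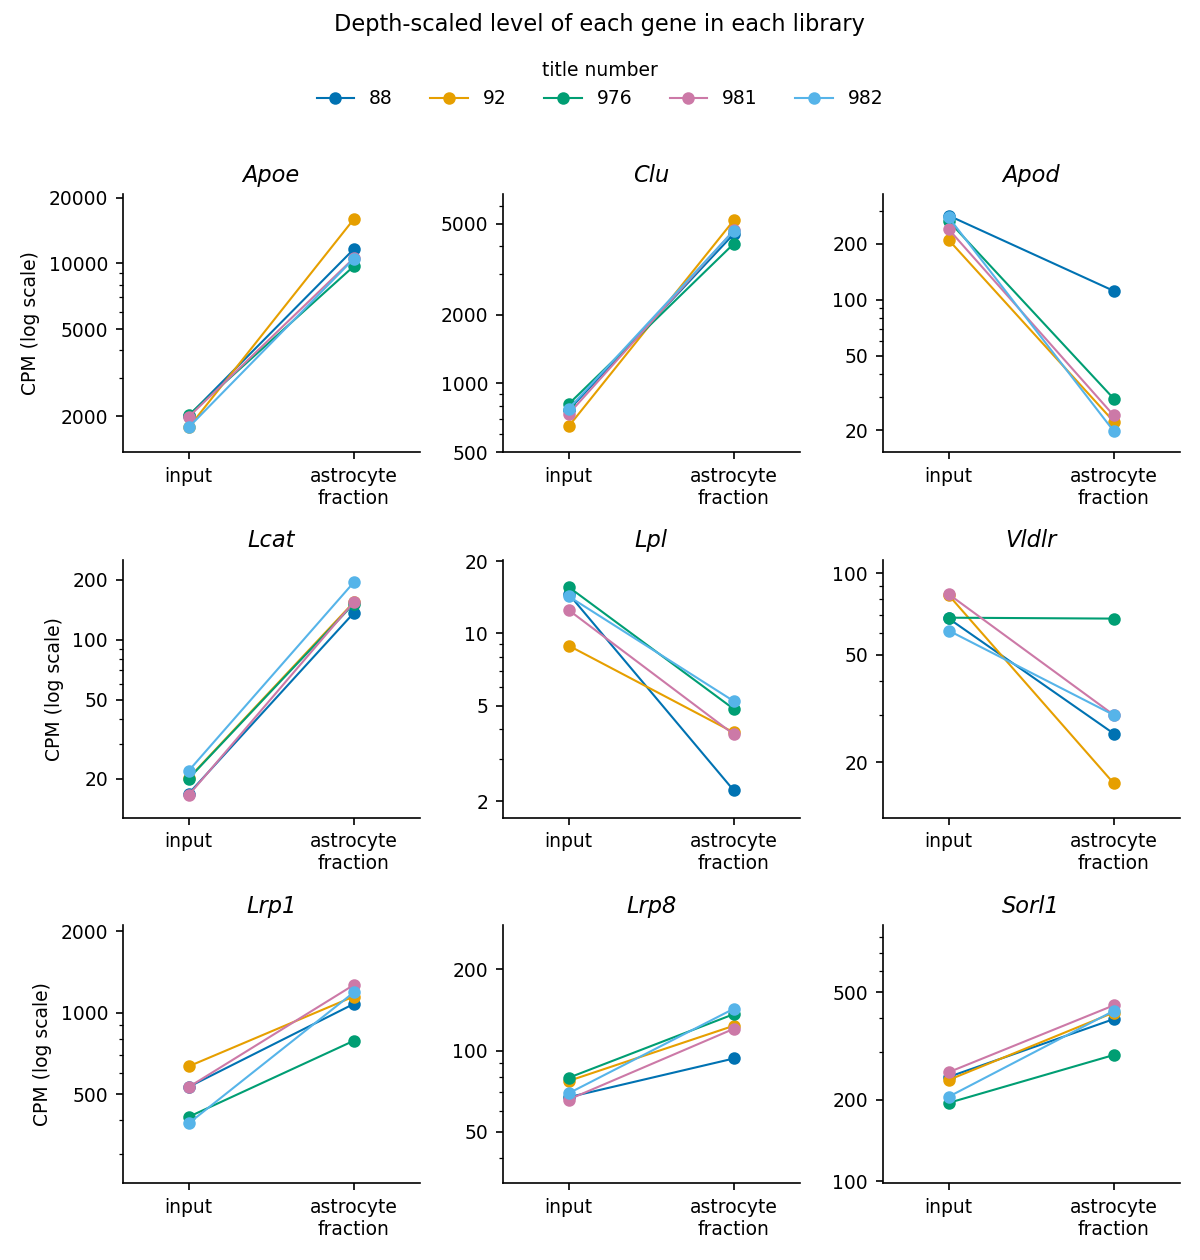
CPM on a log scale in each of the 10 libraries, input at the left and astrocyte fraction at the right of each panel. A line joins libraries with the same title number. Lines of all 5 numbers rise for Apoe, Clu, Lcat, Lrp1, Lrp8 and Sorl1 and fall for Apod and Lpl, and the line of number 976 is level for Vldlr.

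Promoter windows of 3 genes are shown: Lcat, which rose the most, Apod, which fell the most, and Apoe, which had the highest level per length. RefSeq (GRCm38.p6) gave a window of 250 bases before to 50 after the start for 7 of the 9 genes. For Apoe, which has 3 starts in that table, the window is that of the start equal to the 5′ end of the deposited gene, as it is for Apod, while the start used for Lcat lies 20 bases from that end. The windows are chr7:19699139-19699438, minus strand, for Apoe, chr8:105943353-105943652, minus strand, for Lcat and chr16:31314759-31315058, minus strand, for Apod. Capitals mark matches on either strand to 6 motifs: TATAAA (bound by the TATA-binding protein), CCAAT (bound by NF-Y), GGGCGG (GC box), CACGTG (E-box), TTGGCA (NFI site) and ACAAAG (SOX or TCF site).
Apoe: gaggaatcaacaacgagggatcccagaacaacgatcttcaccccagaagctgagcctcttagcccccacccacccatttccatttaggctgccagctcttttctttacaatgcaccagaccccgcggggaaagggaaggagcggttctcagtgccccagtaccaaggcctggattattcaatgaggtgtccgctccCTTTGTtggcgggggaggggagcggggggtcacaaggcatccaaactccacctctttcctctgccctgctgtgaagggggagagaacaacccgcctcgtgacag
Lcat: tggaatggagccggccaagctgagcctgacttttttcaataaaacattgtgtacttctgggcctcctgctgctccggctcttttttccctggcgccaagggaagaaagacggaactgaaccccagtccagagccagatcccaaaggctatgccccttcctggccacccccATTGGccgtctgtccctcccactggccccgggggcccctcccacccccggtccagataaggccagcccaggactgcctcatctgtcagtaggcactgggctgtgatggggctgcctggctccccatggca
Apod: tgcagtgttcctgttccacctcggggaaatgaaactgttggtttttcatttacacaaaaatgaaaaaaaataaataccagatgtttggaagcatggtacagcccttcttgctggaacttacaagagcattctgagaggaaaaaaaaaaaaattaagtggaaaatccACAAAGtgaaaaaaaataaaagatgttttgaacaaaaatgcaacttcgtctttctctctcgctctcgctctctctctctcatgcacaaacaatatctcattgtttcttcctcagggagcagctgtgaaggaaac

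The Apoe and Apod windows each held 1 match to ACAAAG, which was present in 18.7% of all 32851 windows in the table, so the same letters stood before a gene that rose and a gene that fell. The Lcat window held 1 CCAAT match, as did 37.4% of all windows. The window of Apod was poor in G and C, at 37.3%, with 6.19% of all windows lower, while those of Apoe (57.7%) and Lcat (61.3%) lay above the median of 52.7%. Among the receptor genes, the Sorl1 window held 1 GC box and 1 E-box and the Lrp1 window 1 GC box, motifs found in 35.7% (GC box) and 7.15% (E-box) of all windows. These matches describe letters, not binding.

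Apoe (ENSMUSG00000002985, mm10 chromosome 7, 19696109 to 19699188) encodes the main lipid carrier of brain lipoproteins and had the highest level per length of the 9 in both groups. It stood at 2006, 1773, 2022, 1983 and 1776 CPM in the inputs 88, 92, 976, 981 and 982. In the astrocyte fraction libraries of the same numbers it stood at 11625, 15945, 9710, 10568 and 10505 CPM. The groups did not overlap, and the shallow library 92 gave the highest value. The log2 fold change was 2.61 ± 0.13 (SE, adjusted p = 1.94e-09), and all 5 numbers rose.

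Clu (ENSMUSG00000022037, chromosome 14, 65968483 to 65981547), which encodes the secreted chaperone clusterin, came next in level per length. Its inputs lay between 649 and 812 CPM and its astrocyte fraction libraries at 4506, 5168, 4083, 4672 and 4655 CPM in the order 88, 92, 976, 981 and 982. It varied little within the astrocyte fraction, and library 976, rich in choroid plexus RNA, gave its lowest value there. Its log2 fold change was 2.63 ± 0.08 (adjusted p = 9.36e-11). Without the numbers 976 and 982 it was 2.85. Apoe and Clu rose by amounts that were not told apart: the log2 ratio of Apoe to Clu changed by -0.04 between the groups, with a 95% interval of -0.24 to 0.19 (exact permutation test, two-sided, p = 0.722, adjusted p = 0.767 over 17 gene pairs).

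Lcat (ENSMUSG00000035237, chromosome 8, 105939551 to 105943382) had a far lower level per length than Apoe and Clu in the input and rose the most of the 9. Its inputs gave 16.8, 20.1, 20.02, 16.5 and 21.9 CPM, against 136, 154, 152, 154 and 194 CPM in astrocyte fraction libraries, in the same order of numbers. No astrocyte fraction library came near the input, and library 982 was the highest in each group. Its log2 fold change was 3.04 ± 0.11 (adjusted p = 1.92e-10), with 99.1% of all tested genes lower. Lcat rose by an amount not told apart from that of Aldh1l1: the log2 ratio of Lcat to Aldh1l1 changed by 0.02 (95% interval -0.36 to 0.43, exact permutation p = 0.913, adjusted p = 0.913). Clu fell short of Aldh1l1 by 0.40 on the log2 scale (difference -0.40, interval -0.67 to -0.11, exact permutation p = 0.0159, adjusted p = 0.0208). For Apoe the difference from Aldh1l1 was -0.44 (interval -0.76 to -0.08, exact permutation p = 0.0397, adjusted p = 0.0482), and this call was lost, at adjusted p from 0.0771 to 0.0964, when any library other than the astrocyte fraction library 92 was left out. These tests ignore the title numbers. Within numbers, 1 of 5 differences from Aldh1l1 was above 0 for Clu (0.03) and for Apoe (0.20). The exact sign-flip test over the 5 numbers gave p = 0.125 for each.

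Apod (ENSMUSG00000022548, chromosome 16, 31296192 to 31314808) went the other way from Apoe and Clu. In the inputs it stood at 283, 209, 264, 239 and 276 CPM, and in the astrocyte fraction at 112, 22.2, 29.5, 23.98 and 19.8 CPM, in the order 88, 92, 976, 981 and 982. All 5 astrocyte fraction libraries lay below all inputs, but library 88 stood apart from the other 4. Its log2 fold change of -2.61 (adjusted p = 0.00117) became -3.39 when that library was left out (adjusted p = 2.22e-09). The difference of mean log2 CPM, which gives each library equal weight, was -2.97 ± 0.46 (SE). Against Apoe the separation was a log2 ratio change of 5.56 (95% interval 4.46 to 6.42, exact permutation p = 0.00794, the smallest that 5 against 5 can give, adjusted p = 0.0112).

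The astrocyte fraction library 88 was also high for genes known from the leptomeninges, the membranes on the brain surface. Fibroblasts of the leptomeninges are a known site of Apod expression. Of 12 such genes, listed after the values of that library were seen, 10 were in the table. All 10 had their highest astrocyte fraction value in library 88, but a list chosen this way makes that count no test. The lead was small for Igf2 and for Foxd1 (10.9 CPM, next library 8.89 CPM). Bgn, alone among the 10, was lower in library 88 of the fraction (8.52 CPM) than in input 88 (13.3 CPM). Summed, the 10 genes reached 2684 CPM in the astrocyte fraction library 88, with 72.2 to 402 CPM among the remaining 4 of the fraction. In the inputs the sum was 795 CPM in number 88 and 283 to 513 CPM in the others. Most of that sum was Ptgds, the prostaglandin D synthase gene, at 2439 CPM in the library 88. The retinoic acid enzyme gene Aldh1a2 was at 35.6 CPM in library 88, and its next highest library of the fraction was at 2.16 CPM. The 10 mural and fibroblast markers differed less, with a sum of 129 CPM in library 88 and 91.2 to 117.5 CPM elsewhere in the fraction. Red blood cell markers summed to 101 CPM in library 88 and to 16.1 to 45.6 CPM elsewhere in the fraction. Oligodendrocytes also express Apod, and their summed markers were at 1375 CPM in library 88 and at 987 to 1204 CPM elsewhere in the fraction, against 6709 to 8123 CPM in the inputs. The part of leptomeningeal cells or of oligodendrocytes in the Apod values was not tested.

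Lpl (ENSMUSG00000015568, chromosome 8, 68880491 to 68907448) had the lowest level per length of the 9. It stood at 14.6, 8.89, 15.6, 12.5 and 14.3 CPM in the inputs and at 2.22, 3.86, 4.84, 3.796 and 5.22 CPM in the astrocyte fraction. The values rest on 54.3, 13.2, 121, 88.8 and 115 expected counts in the astrocyte fraction libraries, so that of library 92 is imprecise. The groups did not overlap and every number fell. Its log2 fold change was -1.71 ± 0.26 (adjusted p = 2.16e-05). The 2 extracellular enzymes thus parted: the log2 ratio of Lcat to Lpl rose by 4.79 (95% interval 4.22 to 5.31, exact permutation p = 0.00794, adjusted p = 0.0112). Microglia and oligodendrocyte precursors, which are known to express Lpl, had summed marker levels of 56.1 to 71.8 and 30.1 to 34.5 CPM in the astrocyte fraction, against 405 to 555 and 198 to 251 CPM in the input, and their part in the Lpl values was not tested.

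Among the receptors, Lrp1 (ENSMUSG00000040249, chromosome 10, 127538161 to 127621148), the endocytic receptor, had the highest level per length. Its inputs gave 532, 634, 413, 532 and 390 CPM, against 1079, 1149, 788, 1268 and 1190 CPM in the astrocyte fraction. The groups did not overlap, although the lowest astrocyte fraction library, 976 (788 CPM), was not far above the highest input, 92 (634 CPM). The log2 fold change was 1.13 ± 0.18 (adjusted p = 2.21e-05). Relative to Aldh1l1, Lrp1 was 1.89 lower on the log2 scale (difference -1.89, 95% interval -2.20 to -1.60, exact permutation p = 0.00794, adjusted p = 0.0112).

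Sorl1 (ENSMUSG00000049313, chromosome 9, 41964720 to 42124297), the sorting receptor, gave 243, 237, 195, 253 and 205 CPM in the inputs, against 398, 421, 293, 447 and 427 CPM in the astrocyte fraction. As for Lrp1, library 976 was the lowest of the astrocyte fraction. The log2 fold change was 0.81 ± 0.13 (adjusted p = 3.41e-05), and all 5 numbers rose, by 0.59 to 1.05. Lrp1 rose more than Sorl1 in every number, with a log2 ratio change of 0.33 (95% interval 0.16 to 0.49, exact permutation p = 0.00794, adjusted p = 0.0112). Gene models on the opposite strand share 1.63% of its exon bases, and none shares any with the other 8 genes. For Aldh1l1, used as a yardstick here, 11.05% of exon bases are shared with a gene on the opposite strand and 2.33% with 1 on the same strand.

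The paired reelin receptors diverged. Lrp8 (ENSMUSG00000028613, chromosome 4, 107802261 to 107876840) gave 67.2, 77.2, 79.3, 65.9 and 69.5 CPM in the inputs, against 93.4, 123, 136, 120 and 143 CPM in the astrocyte fraction. The groups did not overlap, with library 88 the lowest of the fraction. Its log2 fold change was 0.78 ± 0.12 (adjusted p = 2.92e-05).

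Vldlr (ENSMUSG00000024924, chromosome 19, 27216484 to 27254231) had an input level per length that overlapped with that of Lrp8. Its inputs were at 68.03, 83.02, 68.5, 83.7 and 61.4 CPM, and the astrocyte fraction was at 25.5, 16.7, 68.0, 29.9 and 29.9 CPM. Library 976 stood far above the other 4 and reached the input range, so that the groups overlapped. Its log2 fold change of -1.09 (adjusted p = 0.00960) became -1.40 when library 976 was left out (adjusted p = 7.28e-06). The difference of mean log2 CPM was -1.25 ± 0.34 (SE). The log2 ratio of Vldlr to Lrp8 fell by 2.02 (difference -2.02, 95% interval -2.69 to -1.31, exact permutation p = 0.00794, adjusted p = 0.0112) and was lower in the fraction in all 5 numbers. Library 976 also held the most choroid plexus RNA. Ttr, the transthyretin gene of the choroid plexus, was at 11036 CPM there, but also at 2312 CPM in the astrocyte fraction library 982, where Vldlr was at 29.9 CPM. The part of this RNA in the Vldlr value was not tested.

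**Figure D2:**
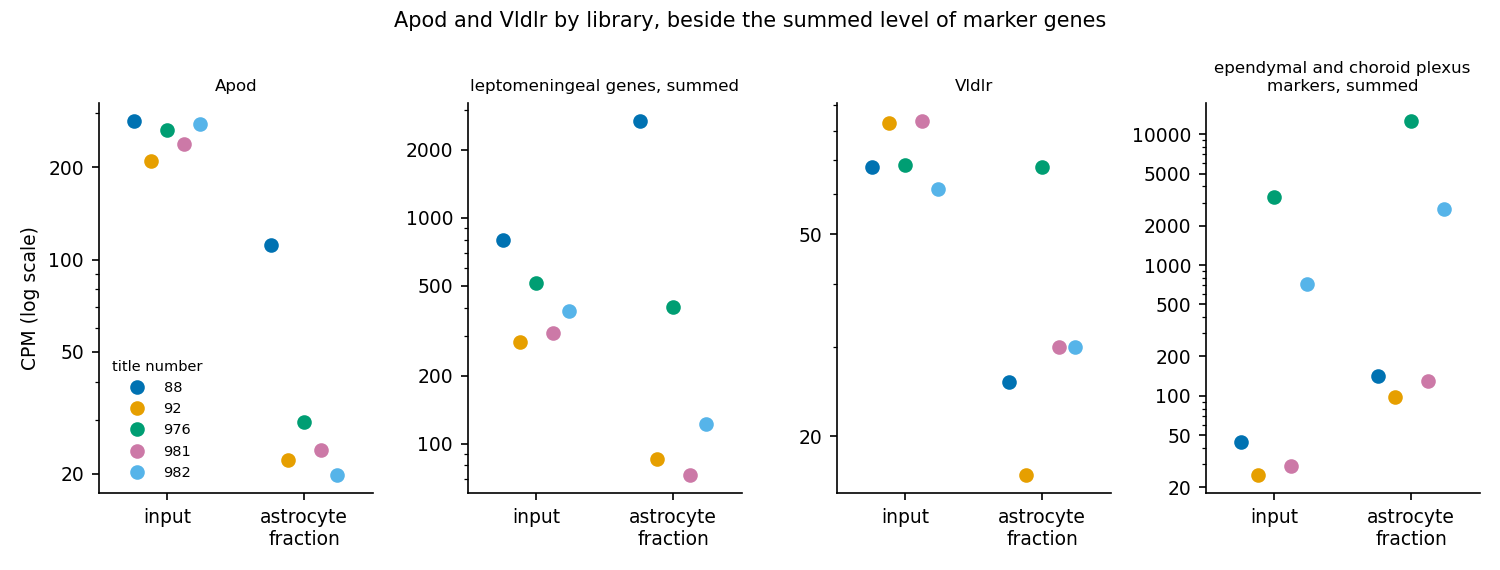
CPM on a log scale in each library, coloured by title number, for Apod, for the sum of 10 leptomeningeal genes, for Vldlr and for the sum of 8 ependymal and choroid plexus markers. The astrocyte fraction library 88 is high for Apod (112 CPM) and for the leptomeningeal sum (2684 CPM), and library 976 is high for Vldlr (68.0 CPM) and for the choroid plexus sum (12576 CPM).

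Within 4 of the 5 title numbers Lcat had the largest difference, then Clu, then Apoe, the order of the fitted values, and in number 92, with the shallow library, the order was Apoe, Clu, Lcat. The differences ran from 2.92 to 3.21 for Lcat, 2.33 to 2.99 for Clu and 2.26 to 3.17 for Apoe. Next came Lrp1 (0.86 to 1.61), Sorl1 (0.59 to 1.05) and Lrp8 (0.47 to 1.04), whose ranges overlapped. The difference between Lrp1 and Lrp8 was 0.37 (95% interval -0.20 to 0.91, exact permutation p = 0.119, adjusted p = 0.135). It was above 0 in all 5 numbers (0.15 to 0.57), for which the exact sign-flip test gave p = 0.0625, the smallest it can give. The unpaired test passed the threshold only without the astrocyte fraction library 976 (0.52, adjusted p = 0.0208). The genes that fell had wider ranges, from -2.31 to -0.01 for Vldlr, -2.68 to -1.20 for Lpl and -3.80 to -1.34 for Apod.

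**Figure D3:**
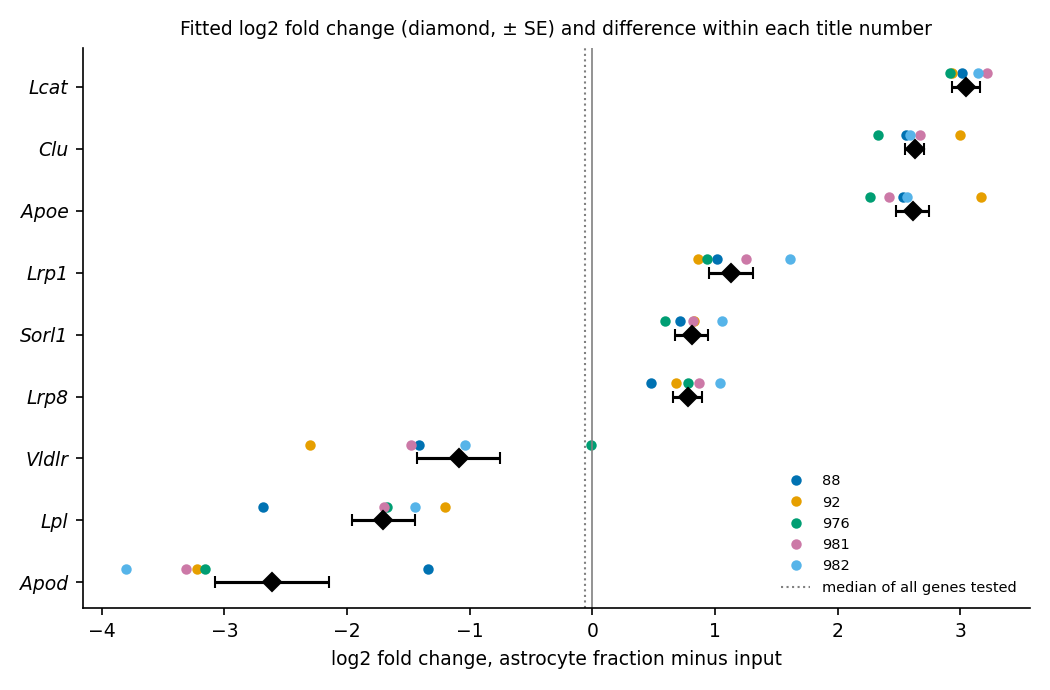
Log2 fold change of the astrocyte fraction minus input for each of the 9 genes. Diamonds are fitted values with the SE of the difference of mean log2 CPM, coloured points are differences within each of the 5 title numbers, and the dotted line is the median of all tested genes (-0.06). Lcat, Clu and Apoe lie between 2.61 and 3.04, and the points of Apod and Vldlr spread the most.

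The 9 genes together accounted for 0.422 ± 0.0244% of an input library (SD, n = 5) and for 1.64 ± 0.234% of an astrocyte fraction library (SD, n = 5). The lowest astrocyte fraction library, at 1.44%, was above the highest input, at 0.451%. Apoe alone took 0.211 ± 0.0170% of the input and 1.05 ± 0.208% of the astrocyte fraction, and Clu took 0.0826 ± 0.00822% and 0.417 ± 0.0264%. Apod took 0.0281 ± 0.00388% of the input and 0.00376 ± 0.00359% of the astrocyte fraction. Within the counts of the 9 genes, Apoe made up 50.1 ± 1.46% of the input and 64.0 ± 3.35% of the fraction, and Lrp1 13.1 ± 2.65% and 6.09 ± 1.04%. The balance inside the group thus moved toward Apoe and Clu, while the share of Lrp1 within it was lower although Lrp1 itself rose. Shares are of raw library totals, without TMM scaling, and so also move with every other gene of a library.

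**Figure D4:**
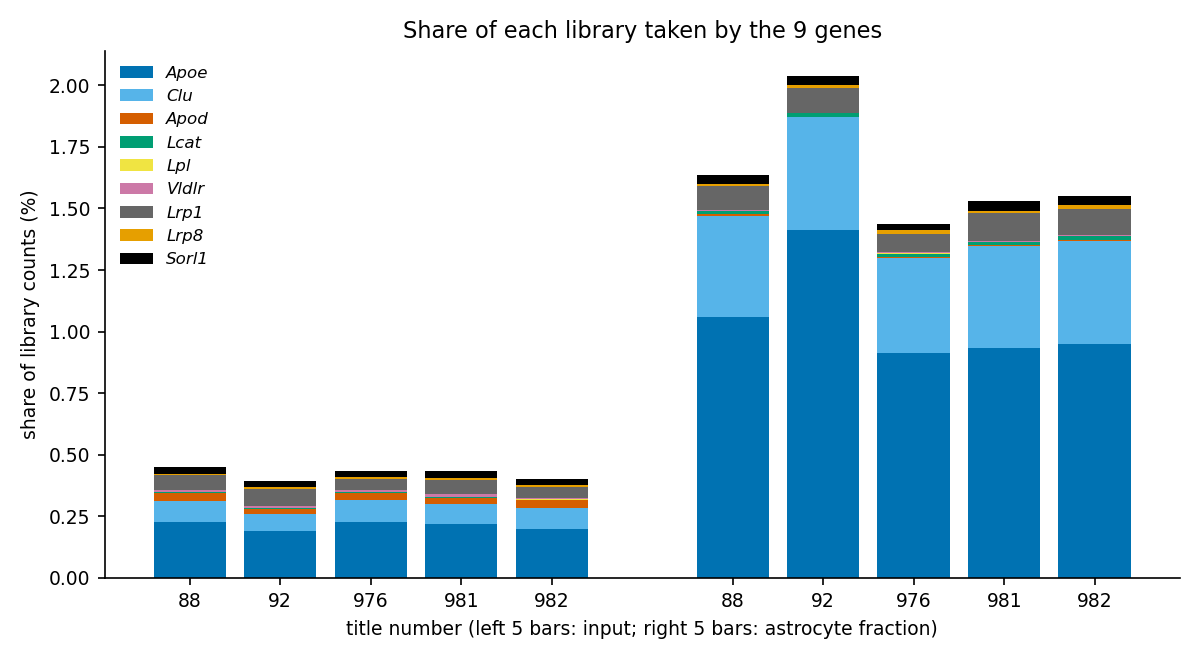
Stacked bars of the percent of library counts taken by each of the 9 genes, with 5 input libraries at the left and 5 astrocyte fraction libraries at the right. The bars reach 0.393% to 0.451% in the input and 1.44% to 2.04% in the astrocyte fraction, and most of their height is Apoe and Clu.

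Apart from the shares above, which also depend on the length of each gene's RNA, levels of different genes were compared only per length. The unit was CPM per kilobase of merged exons in GENCODE M21, whose coordinates for the 9 genes equal the deposited ones. In the input the order was Apoe (894 ± 59.0, SD, n = 5), Clu (217 ± 17.9), Apod (98.7 ± 11.7), Lrp1 (28.2 ± 5.62), Sorl1 (20.02 ± 2.22), Lcat (14.2 ± 1.73), Vldlr (7.24 ± 0.986), Lrp8 (6.83 ± 0.576) and Lpl (1.26 ± 0.252). The library ranges of Lrp1 and Sorl1 overlapped, as did those of Vldlr and Lrp8. In the astrocyte fraction Apoe (5459 ± 1162) and Clu (1343 ± 113) again led, and Lcat (118 ± 16.0) came next, above Lrp1 (61.8 ± 10.4) and Sorl1 (35.1 ± 5.36). Apod (16.1 ± 15.3) overlapped with Sorl1 above it and Lrp8 (11.7 ± 1.81) below it, followed by Vldlr (3.38 ± 1.96) and Lpl (0.380 ± 0.111).

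For each gene the 2 most alike among 8835 other genes of the upper 50% by level were found from the 5 differences within numbers, by root mean square distance on the log2 scale. Clu was nearest to the aldolase gene Aldoc (distance 0.05) and the desaturase gene Scd1 (0.10), and Lcat to Prex2 (0.07) and Chil1 (0.08). Apoe was nearest to Rpl10a-ps1 (0.12), a processed copy of the gene for the ribosomal protein that carries the tag, with which it may share reads, so that its value is uncertain, and to Clu (0.14). Lrp8 was nearest to Tle4 (0.07) and Fam120c (0.09), Sorl1 to Mpp5 (0.07) and Arnt2 (0.07), and Lrp1 to Pomt1 (0.14) and Adgrl3 (0.15). The patterns of the genes that fell had no near match, with distances of 0.25 for Vldlr and Ptprk, 0.29 for Lpl and Gm45837, and 0.72 for Apod and Foxp2.

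Around the 9 genes, 7 lists of related genes were read from the same fit. Other genes with apolipoprotein names, whatever their function, numbered 7 tested: 3 higher, 2 lower and 2 without a call (median log2 fold change -0.53). Apoc1, the neighbour of Apoe on chromosome 7 that encodes a small exchangeable apolipoprotein, rose from 1.82 ± 0.446 to 16.2 ± 6.75 CPM (log2 fold change 3.11, adjusted p = 1.04e-06). Apoo (1.08) was the other higher gene with the smallest adjusted p. Its product, despite the name, is known mainly as a subunit of a mitochondrial inner membrane complex. The remaining higher gene was Apool (1.39), named after its values were seen. The APOL family genes Apol8 (-1.60) and Apol6 (-2.76) were lower. Apol6 went from 1.49 ± 0.427 to 0.133 ± 0.109 CPM, about the level of 3 counts, so the size of its change is imprecise.

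Lipid loading and lipoprotein remodelling was covered by 17 tested genes: 11 higher, 4 lower and 2 without a call (median 0.89). Npc2, which carries cholesterol out of lysosomes, rose from 83.1 ± 12.4 to 364 ± 36.7 CPM (log2 fold change 2.13), and the liver X receptor gene Nr1h3, a sterol sensor, rose from 3.24 ± 0.498 to 14.7 ± 1.301 CPM (2.16). The ABC transporter genes of the list parted. Abcg1, which exports sterol to lipoproteins, fell from 69.9 ± 5.60 to 10.8 ± 1.77 CPM (-2.66, adjusted p = 4.65e-10), and Abcg4 (-1.21) and Abca7 (-0.64) were also lower. The Abca7 call was lost without the input library 92 or without the astrocyte fraction library 88, 92 or 981, at adjusted p from 0.0525 to 0.0551. Abca1, which starts the lipidation of apolipoprotein E, rose from 43.6 to 208 CPM (2.25). Abca1 and Abca7 are outside the rule for named genes and were named after their values were seen, as the other ABC transporters of the list.

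Other LDL receptor family genes numbered 12 tested: 4 higher, 7 lower and 1 without a call (median -0.52). Lrp4, a receptor for agrin, rose from 32.6 ± 3.25 to 155 ± 22.4 CPM (2.25, adjusted p = 1.69e-09) and Lrp10 from 45.5 ± 6.36 to 165 ± 28.7 CPM (1.86). Lrp12 (-1.31) and Lrp3 (-1.17) were lower.

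The sorting route of SORL1 was covered by 12 tested genes for VPS10 domain receptors, retromer subunits and sorting adaptors (the retromer list below). Of these, 3 were higher, 6 lower and 3 without a call (median -0.39). The 6 lower genes were receptor and adaptor genes, not retromer subunit genes. Under total count scaling 1 was higher and 8 were lower, and without the astrocyte fraction library 976 or without 982, 5 were higher. Sorcs2 (1.69), a receptor of the same family, was higher, whereas Sorcs3 fell from 37.04 ± 5.50 to 5.84 ± 1.19 CPM (-2.65, adjusted p = 1.02e-08). The retromer subunit gene Vps26a was 0.43 higher, a call lost with total counts (0.15, adjusted p = 0.0927), and the sorting adaptor gene Gga3 was lower (-1.39).

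Of 12 tested receptor chaperone, adaptor and degrader genes, 7 were higher, 4 lower and 1 without a call (median 0.67). The engulfment adaptor gene Gulp1 (2.002) and the endocytic adaptor gene Dab2 (1.87), whose products bind tails of LDL receptor family members, were higher. The scaffold genes Mapk8ip2 (-2.24) and Apbb1 (-1.14) were lower. Of 14 reelin signalling genes, 8 were higher, 2 lower and 4 without a call (median 0.54), but 6 and 5 under total count scaling. The kinase gene Fyn (1.29) and the adaptor gene Crk (0.76), which act after reelin binds, were higher, and the integrin gene Itga3 (-1.72) was lower. Pafah1b1 (-0.27) was lower, a call lost when input 92, input 981, fraction library 976 or fraction library 982 was left out, at adjusted p from 0.0511 to 0.125. Of 6 scavenger and microglial lipoprotein receptor genes, none was higher, 4 were lower and 2 had no call (median -3.35). Trem2, a microglial receptor that binds apolipoprotein E, fell from 10.9 ± 1.66 to 0.707 ± 0.301 CPM (-3.75, adjusted p = 1.16e-07) and the scavenger receptor gene Stab1 was also lower (-3.32). The mean Trem2 level in the astrocyte fraction is below that of 3 counts in the shallow library 92 (0.880 CPM).

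**Figure D5:**
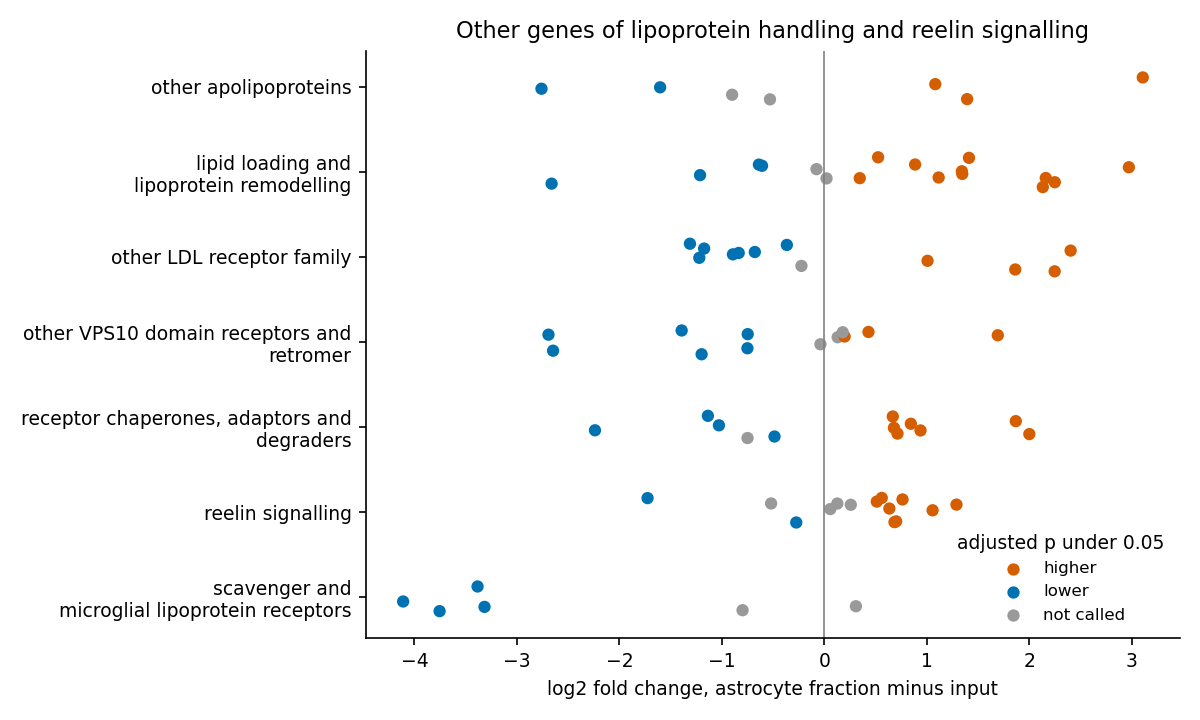
Log2 fold change (astrocyte fraction minus input) of each tested gene of the 7 lists around the 9 genes, coloured by its call at an adjusted p under 0.05. All lists but the scavenger list hold genes called in either direction, and 4 of 6 scavenger list genes lie below -3.3.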

How the data were processed

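Libraries were built with an NEB kit from 25 ng of RNA, per the labels' protocols. The authors deposited expected counts (estimated counts per gene, marked raw in the header) and, beside them, normalized log2 values whose input medians are 0. CASAVA 1.8, DESeq and mm10 are listed, with no role, by the submitters' processing notes. For aligner, counter and strand setting nothing was found (not given in the sources used here). Expected counts were rounded, and the normalized values served only as an alternative without a test. The main test was edgeR (4.0.16, under R 4.3.3; TMM, filterByExpr with a minimum count of 10, robust quasi-likelihood test, prior count 2, adjusted p under 0.05), which kept 17672 genes and removed 792. All 9 genes passed. The SE of a log2 fold change is that of the difference of mean log2 CPM over 5 libraries a group. Ratios of 2 genes within a library used a pseudocount of 0.5 counts, a two-sided exact permutation test of the 5 against 5 libraries, its inversion as 95% interval, and adjustment over 17 pairs. The tests were tried on simulated data. Counting limits: 3 counts are 0.0912 to 0.136 CPM, and 0.880 CPM in the astrocyte fraction library 92.

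Same-numbered libraries deviated together from their group means (correlations 0.189 to 0.493 in 5 numbers), so the title number was taken as a pairing in an alternative fit. The mean correlation between different numbers was -0.08. Centring on the group means makes it negative when same-numbered libraries correlate, so it is no independent baseline. Named genes are the 9, Aldh1l1, up to 2 called genes per direction of each list with the smallest adjusted p, and the nearest patterns; others are marked. The members and lists were chosen with earlier results of these data known. A result for 1 listed gene is not reported here. Alternatives were DESeq2 1.42.0, total count scaling, other filters, the block and left-out libraries.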

Additional observations from a re-analysis of the deposited data

Results flagged for a closer look

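In 2 of the 18 combinations of gene and group, 1 library stood far from the other 4; about 1 in 20 such combinations does so by chance. Apod was at 112 CPM in the astrocyte fraction library 88, and its gap to the next library was 0.894 of the group's range. Vldlr was at 68.0 CPM in the astrocyte fraction library 976, with a gap of 0.742 of the range.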

How the results depend on the processing

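For each of the 9 genes, 18 alternatives kept the direction, and all of these but the difference of the authors' normalized log2 means, which has no test, kept the call. The fitted values ranged from 2.32 to 2.84 for Apoe, 2.34 to 2.85 for Clu, 2.76 to 3.21 for Lcat, 0.84 to 1.34 for Lrp1, 0.49 to 0.92 for Lrp8, 0.52 to 1.01 for Sorl1, -1.55 to -0.91 for Vldlr, -1.99 to -1.49 for Lpl and -3.44 to -2.09 for Apod. Total count scaling gave the lowest value of Apoe, Clu, Lcat, Lrp1, Lrp8, Sorl1 and Lpl. The replicate block changed no call of the 9 genes (Vldlr -1.24, adjusted p = 0.0203; Apod -2.99, adjusted p = 0.00315). As an exact sign-flip test over 5 pairs, which cannot go below p = 0.0625, no gene pair passed, which says nothing of stability. The values, the same as without the pairing, were 5.56 (Apoe against Apod), 5.60 (Clu against Apod), 4.79 (Lcat against Lpl), -2.02 (Vldlr against Lrp8), 2.38 (Lrp1 against Vldlr), 0.33 (Lrp1 against Sorl1) and, against Aldh1l1, -0.44 (Apoe), -0.40 (Clu), -5.995 (Apod), -4.77 (Lpl), -4.27 (Vldlr), -1.89 (Lrp1), -2.26 (Lrp8) and -2.23 (Sorl1). With a library left out, Apoe against Aldh1l1 lay between -0.57 and -0.37, Lcat against Aldh1l1 between -0.054 and 0.10 without a call, and Lrp1 against Lrp8 between 0.27 and 0.52. Scaled to total counts, 1 retromer list gene was higher and 5 reelin list genes were lower. Keeping genes with an average of 5 CPM or more, 1 other apolipoprotein gene was lower, since fewer genes were tested. With 1 library left out, retromer list genes called higher numbered 3 to 5 and reelin list genes called lower 1 to 2. Without the numbers 976 and 982, 5 retromer list genes were higher. Without the astrocyte fraction libraries 88 and 976, chosen after seeing the data, 5 retromer list genes were higher and 1 reelin list gene lower. Where not stated, the cause was not tested. The shallow astrocyte fraction library 92 limits the precision of low genes such as Lpl.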
